A study of Mus musculus with 2 samples.

Results

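The regions described here are the LSD1 peaks of mouse chromosome 10 in differentiating C2C12 cells, an established mouse myoblast line that forms myotubes in low serum. They were selected on their position in the authors' deposited list of peaks, as every peak placed on chromosome 10 of the build mm9, and number 729 of 11797 peaks in all, or 6.18% of the list. The chromosome was picked because this list is dense there, and the stretch with starts from 94000000 to 101999999 (counted from 0, as in the deposited list) was picked for the same reason. The number of peaks, their density, length, score and spacing therefore all come from the values that chose the members. They are given as a description, with no test.

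The list compares 1 chromatin immunoprecipitation (ChIP) library, made with a polyclonal antibody to LSD1, with 1 input library, made from the same kind of chromatin with no antibody. Both came from C2C12 cells kept for 48 h in medium with 25 mM glucose and 2% horse serum, after growth in 10% fetal bovine serum. Formaldehyde and disuccinimidyl glutarate were both used to crosslink the cells, which also traps LSD1 held to DNA through other proteins. With 1 library in each group no value has a replicate error, and the read depth of the libraries is unknown.

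LSD1, encoded by Kdm1a, is a flavin-dependent demethylase that removes methyl groups from lysines of histone H3. It does not recognise a DNA sequence of its own and is brought to chromatin by partners, among them CoREST, histone deacetylases and transcription factors. It is best known for switching off enhancers and promoters, and in myoblasts it takes part in the change of gene expression that accompanies differentiation. Mouse chromosome 10 carries the neighbouring muscle regulators Myf5 and Myf6. Peaks were not assigned to these or to other genes, because the gene and promoter tables at hand were of another build than the peaks, and for the same reason the bases under the peaks were not read.

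The 729 peaks of chromosome 10 ran from a first start at 3039629 to a last start at 129985559, a span of 126.9 Mb, and gave 5.74 peaks per Mb. They covered 391.6 kb, which is 0.309% of the span. Most were short: they measured 167 to 2489 bp, with 456 bp as the median length and 370 and 631 bp as the quartiles. Of the 729, 60 were shorter than 300 bp, 373 were from 300 to under 500 bp, 253 from 500 to under 1000 bp, 38 from 1 to under 2 kb and 5 were 2 kb or longer. The score, a number that the authors' peak caller gave each peak on a scale not stated in the sources used here, had a median of 80.14, quartiles of 60.1 and 130.1, and a range of 50.01 to 882.1. The whole list starts at 50.01 as well, so chromosome 10 holds peaks down to the lowest score kept.

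Peaks lay along the whole of chromosome 10, and their number changed several-fold between neighbouring megabases. Of the 127 windows of 1 Mb from the first peak to the last, 7 held no peak, 26 held 1 or 2, and 25 held 10 or more. Those 25 windows carried 345 peaks, or 47.3% of the chromosome's total. The median window held 5 peaks and the fullest held 33. The variance of the window counts was 4.31 times their mean, and 3.07 times without the peaks of 3 compact groups that are described further on.

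**Figure D1:**
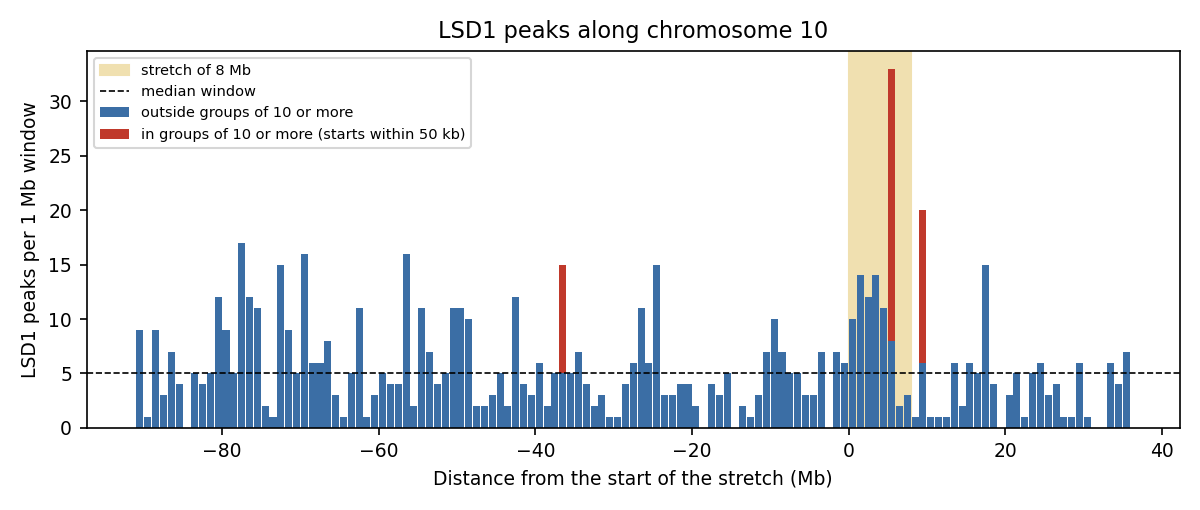
LSD1 peaks in each 1 Mb window of chromosome 10 (y axis) against the distance of the window from the start of the 8 Mb stretch (x axis, Mb). Blue is peaks outside groups of 10 or more, red is peaks in the 3 groups of 10 or more whose starts follow each other within 50 kb, shading marks the stretch and the dashed line the median window of 5. The tallest window holds 33 peaks, of which 25 are in a group.

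In blocks of 10 Mb the profile had a broad shoulder in its proximal part, a low stretch in the middle and a peak at 90 to 100 Mb. The first block, up to 10 Mb, held 33 peaks. It lies only in part within the span, because the first peak starts at 3039629. The count was 82 at 10 to 20 Mb and 70 at 20 to 30 Mb, and it stayed at 62, 60 and 61 over the next 3 blocks. It was 53 at 60 to 70 Mb, and the sparsest block followed with 28 peaks at 70 to 80 Mb. The next blocks held 46 at 80 to 90 Mb and 114 at 90 to 100 Mb, which was 15.6% of all peaks of the chromosome. Beyond it the counts were 43, 47 and 30. The fullest block thus held 4.07 times as many peaks as the sparsest one between the end blocks.

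The proximal shoulder, 10 to 30 Mb, held 152 peaks at 7.6 per Mb. Outside this interval and outside the stretch the chromosome had 4.83 per Mb, so the shoulder was 1.57 times as dense. None of its peaks belonged to a group of 10 or more. Its fullest windows held 17 peaks (16 to 17 Mb), 16 peaks (24 to 25 Mb) and 15 peaks (21 to 22 Mb). The median length there was 467 bp and the median score 79.38, close to those of the chromosome as a whole. Long peaks were fewer: 3 of the 152 (1.97%) were 1 kb or longer. On the whole chromosome the share was 5.9%, and 4.12% without its groups of 10 or more. The highest-scoring peak of chromosome 10 lay in the shoulder, at 17494731 to 17495600, with a length of 870 bp and a score of 882.1.

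The block at 60 to 70 Mb stood out by the size of its peaks rather than their number. The median of its 53 peaks was 589 bp for length and 108.4 for score, the highest of the 13 blocks on both. Of the 53, 34 (64.2%) reached the median score of the whole list, 78.25, and 8 were 1 kb or longer. No group of 10 or more lay in it, and its 8 long peaks came from 7 different megabases. Its highest score, 472.0, belonged to a 1164 bp peak at 60593560 to 60594723 with no other start within 50 kb. Next was a 947 bp peak at 69888990 to 69889936 with a score of 367.2. Among the 210 blocks of 10 Mb with at least 20 peaks on chromosome 10 and the other autosomes without chromosome 15, this block ranked 8 by median length and 5 by median score, and 33 by number of peaks. The block was picked from the 13 for these same medians, so its ranks are given as description only. In the neighbouring block at 70 to 80 Mb the medians were 422.5 bp and 72.5.

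**Figure D2:**
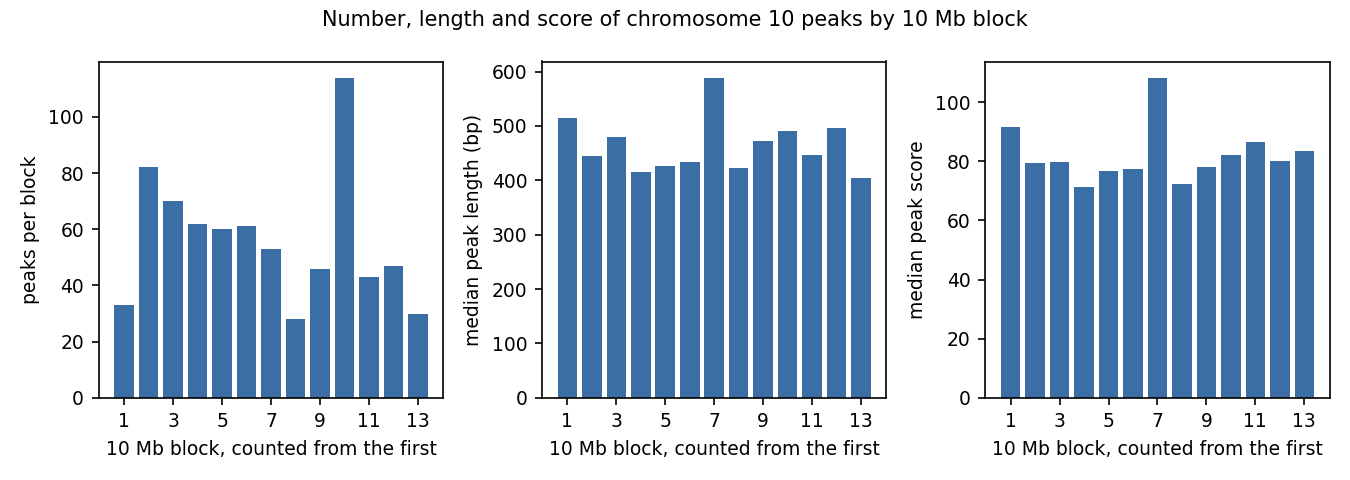
Number of peaks, median peak length (bp) and median peak score in each of the 13 blocks of 10 Mb of chromosome 10, counted from the proximal end. Block 10 has the most peaks, 114, and block 7 the longest and highest-scoring ones, with medians of 589 bp and 108.4.

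The stretch at 94 to 102 Mb held 99 peaks, which is 13.6% of the chromosome's peaks on 6.3% of its span. Its density was 12.4 peaks per Mb against 5.3 in the rest of chromosome 10, a ratio of 2.34. The 630 peaks of the rest lay at 5.66 per Mb before the stretch and at 4.11 per Mb after it. Peaks covered 0.724% of the sequence in the stretch and 0.281% in the rest.

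The raised density was a property of the first 6 Mb of the stretch. Its windows of 1 Mb held 10, 14, 12, 14, 11, 33, 2 and 3 peaks in order. The first 6 Mb thus had 94 peaks at 15.7 per Mb, 2.96 times the rest of the chromosome. The last 2 Mb had 5 peaks at 2.5 per Mb, below the density of the rest. The densest 8 Mb of chromosome 10 on the same grid was in fact 92 to 100 Mb, with 107 peaks at 13.4 per Mb.

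The borders of the stretch are set by round positions. The last peaks before it lay at 93408705 to 93409326, with a score of 77.02, and at 93414187 to 93414459, with a score of 51.63. The first peaks inside lay at 94024052 to 94024678 (score 140.7) and 94473278 to 94473878 (score 119.1). At the other end the last peaks inside lay at 101635937 to 101636415 (score 85.12) and 101791481 to 101791942 (score 62.03). The first peaks outside followed at 102085469 to 102085753 (score 61.5) and 103033414 to 103033816 (score 54.47). The windows on either side of the proximal border held 6 and 10 peaks, and those on either side of the distal border 3 and 1.

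One compact group supplied 25 of the 99 peaks of the stretch. They lay at 99761494 to 99844042, and 24 of them, at 99787636 to 99844042, followed each other within 10 kb over 56.4 kb. These 24 peaks covered 34.9% of that sequence. Their lengths ran from 167 to 2077 bp with a median of 743.5 bp, and 9 were 1 kb or longer. Their scores were moderate, from 50.37 to 275.9 with a median of 88.34. Without the 24, the stretch had 75 peaks at 9.38 per Mb, 1.77 times the rest of the chromosome with its own groups kept. With groups of 10 or more starts within 50 kb left out of both, the ratio was 1.82. The other 5 windows of its first 6 Mb, which have no such group, still held 10 to 14 peaks each, against a median of 4 in the 119 windows outside the stretch.

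Most of the longer peaks in the stretch belonged to this group. In all, 11 of the 99 peaks of the stretch were 1 kb or longer (11.1%, exact 95% interval 5.68 to 19.0%) against 32 of 630 in the rest (5.08%, interval 3.5 to 7.1%). Without the 24 grouped peaks the stretch had 2 of 75 (2.67%, interval 0.325 to 9.3%). The rest without its own groups of 10 or more had 26 of 606 (4.29%, interval 2.82 to 6.22%). The share of the stretch was then the lower one, but it rests on 2 peaks and its interval contains that of the rest. The median length was 488 bp in the stretch, 456 bp without the group and 453.5 bp in the rest. These intervals cover counting error only and treat peaks as independent, although peaks lie in groups, so they are too narrow.

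The median score in the stretch was slightly higher than in the rest, with or without the group. The median was 86.22 in the stretch, and also 86.22 without the 24 peaks, against 79.2 in the rest. The intervals of the medians, 77.89 to 95.98 and 75.9 to 84.7, overlap. Of the 99 peaks 59 (59.6%, interval 49.3 to 69.3%) reached the list's median score, against 325 of 630 (51.6%, interval 47.6 to 55.6%). In the top quartile class of the list's scores (119.4 or more) the shares were 28.3% and 28.1%. The share of the stretch without the 24 peaks was 25.3%, below that of the rest.

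The strongest peaks of the stretch lay outside its compact group. In the order of its megabases, the highest peaks of the first 3 were at 94644995 to 94646214 with a score of 237.9, at 95700868 to 95701947 with 691.6 and at 96890184 to 96890898 with 501.6. The second of these ranked 3 and the third ranked 5 on the chromosome. The next 3 megabases had their highest peaks at 97788175 to 97788986 (score 359.9), 98816429 to 98817076 (score 331.2) and 99372453 to 99373111 (score 380.9). Each of these 6 peaks had a score of at least 237.9, while the top peaks of the last 2 megabases, at 100372055 to 100372419 and 101422627 to 101423009, had scores of 92.2 and 86.61.

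**Figure D3:**
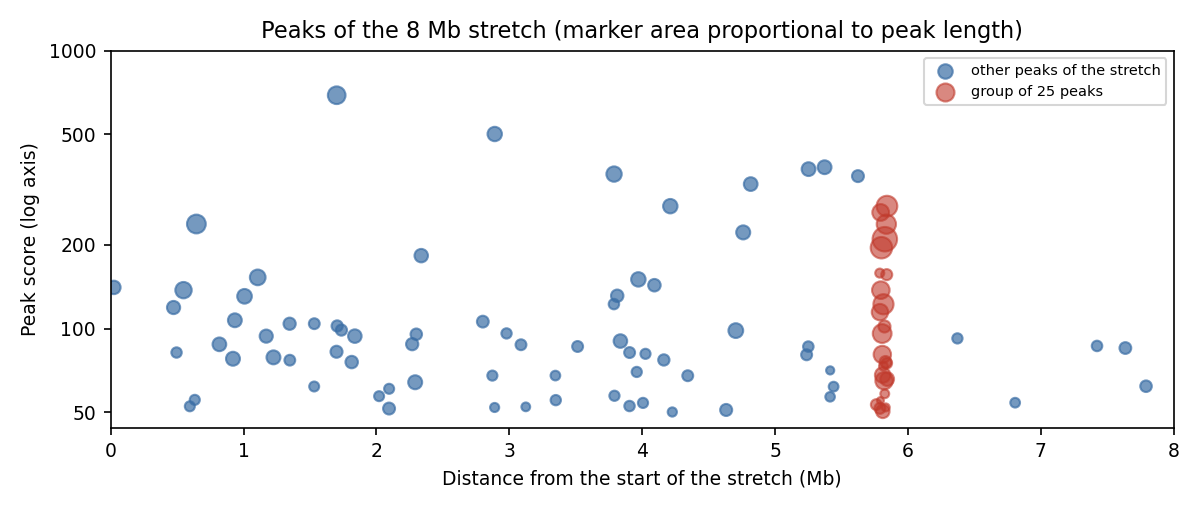
Each of the 99 peaks of the stretch by its distance from the start of the stretch (x axis, Mb) and its score (y axis, log axis), with marker area proportional to length. Red marks the group of 25 peaks, whose scores reach 275.9, and the 2 highest peaks of the stretch, at 691.6 and 501.6, are outside it.

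Peaks of chromosome 10 were often close to another. Of the 729, 60 (8.23%, exact interval 6.34 to 10.5%) had another start within 1 kb, 236 (32.4%, interval 29 to 35.9%) within 10 kb and 443 (60.8%, interval 57.1 to 64.3%) within 50 kb. Over the 17 other autosomes pooled, with chromosome 15 set aside, these shares were 7.74%, 31.7% and 56.4%. The intervals treat peaks as independent, although both peaks of a close pair are counted, so they are too narrow. The 728 distances between consecutive starts had a median of 71.6 kb, with quartiles of 16.7 and 200.9 kb and a range from 341 bp to 2.85 Mb. The median distance was 25.9 kb inside the stretch, 75.8 kb before it and 98.2 kb after it. Without the 24 grouped peaks the median inside the stretch was 55 kb, still below both.

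Closeness came mostly from small groups. When starts within 10 kb were joined into groups, 493 peaks stood alone, 61 groups were pairs, 20 had 3 or 4 peaks and 3 had more. Those 3 groups held 48 peaks. With 50 kb as the distance they held 49 peaks, 6.72% of the chromosome, and no other group reached 10. Without the 49 peaks, 27.6% of the others had a neighbour within 10 kb.

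The 3 large groups differed in their make-up. The one at 57154510 to 57166042 had 10 peaks in 11.5 kb, with lengths of 401 to 963 bp, no peak of 1 kb or more, a median score of 76.38 and 55.8% of its sequence covered. The one at 103604125 to 103637457, which lies 1.6 Mb beyond the stretch, had 14 peaks in 33.3 kb, with 48.3% covered. It had the strongest peaks of the 3 groups: the median score was 138.4, and 12 of its 14 peaks reached the median score of the list. It also held 4 of the 5 peaks of 2 kb or longer on chromosome 10, and the group in the stretch held the other one.

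Similar distances between starts recurred within 2 of the large groups. In the group at 103604125 to 103637457 the 13 distances included 740, 751 and 740 bp, 2730 and 2739 bp, and 6063 and 6098 bp. In the group of the stretch the 23 distances ran from 341 to 5561 bp and included 341 and 348 bp, 1185, 1206 and 1225 bp, and 4602 and 4613 bp. The 9 distances of the group at 57154510 to 57166042 ran from 501 to 2009 bp. These recurring distances were picked out after the values were seen, with no set limit on how alike they had to be. How many near matches 13 or 23 distances would hold in any case was not tested.

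Peaks with their nearest neighbour at 1 to 10 kb had the highest medians of length and score. Over all 729 peaks, the median length was 460 bp for those with a neighbour within 1 kb, 500 bp for 1 to 10 kb, 465 bp for 10 to 50 kb and 429 bp for those farther apart. Their median scores were 79.15, 89.63, 86.42 and 74.82 in the same order. Peaks of 1 kb or more made up 10.8% of those with a neighbour at 1 to 10 kb and 4.2% of those with none within 50 kb. Without the 49 grouped peaks these shares were 4.55% and 4.2%, and none of the 34 peaks left with a neighbour within 1 kb was that long. The median lengths of the 4 classes were then 398.5, 492, 466.5 and 429 bp, lowest in the class within 1 kb. That is in part fixed by the definition of the class. Distances run from start to start and the peaks do not overlap, so a peak followed by a start within 1 kb must be shorter than 1 kb. Of the 43 peaks of 1 kb or longer, 15 were in the 3 large groups.

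**Figure D4:**
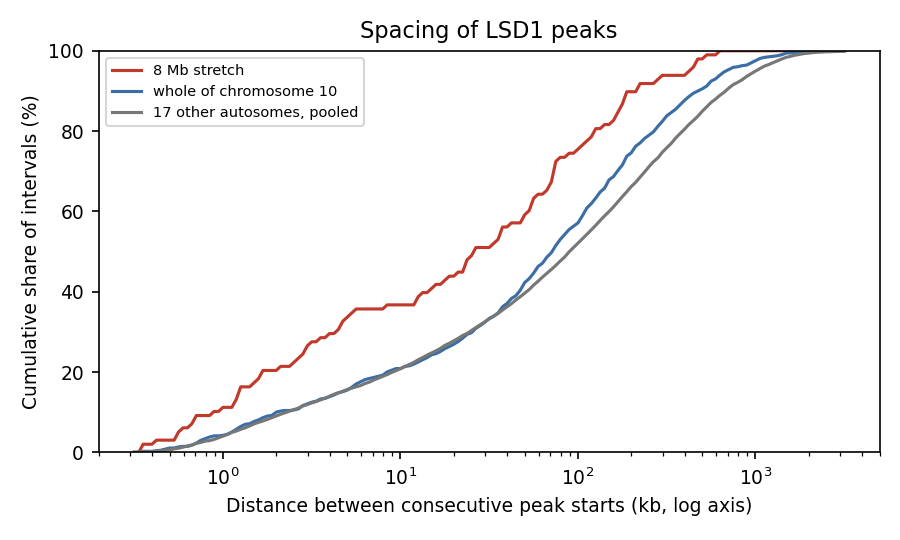
Cumulative share of the distances between consecutive peak starts (y axis, percent) against the distance (x axis, kb, log axis) in the 8 Mb stretch, on the whole of chromosome 10 and on the 17 other autosomes pooled. The median distances are 25.9, 71.6 and 89.4 kb, so the curve of the stretch lies to the left.

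The 10 highest-scoring peaks of chromosome 10 were spread over it. After the peak with a score of 882.1 came one at 88993789 to 88994623, with a length of 835 bp and a score of 702.8, and then the peak of the stretch at 95700868 to 95701947. Of the 10, 2 were in the stretch and 2 were in the group at 103604125 to 103637457, including the longest peak of the chromosome, at 103627575 to 103630063, with 2489 bp and a score of 502.8. The others had scores of 472.0 (60593560 to 60594723), 460.2 (18203244 to 18204043), 438.4 (117916132 to 117917016) and 394.7 (37222094 to 37222762), and the group's second one had 390.2. They ranged from 669 to 2489 bp. In the whole list they stood lower: the top peak of chromosome 10 ranked 34 there. Among the first 100 of the list were 3 peaks of chromosome 10, which holds 6.18% of all peaks.

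Some peaks with high scores had no close neighbour. On chromosome 10, 286 peaks (39.2%) had no other start within 50 kb. Of the chromosome's 10 highest-scoring peaks, 1 was among them. The median score of the 286 was 74.82, the lowest of the classes of neighbour distance. Besides the one at 60593560, the highest of them were at 127781467 to 127782429 (score 354.9), 99623577 to 99624070 (353.8), 85101857 to 85102912 (353.6) and 25253267 to 25254192 (341.9). They were 494 to 1164 bp long. The one at 99623577 lies in the stretch, 137.9 kb from the nearest start.

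Score and length moved together. Both come from the same call of a peak. Spearman's rho across the 729 peaks was 0.70 and Pearson's r was 0.58, with 0.65 for Spearman's rho in the stretch and 0.71 in the rest. With chromosome 10 cut at the quartiles of the whole list's scores, the classes held 179, 166, 179 and 205 peaks from lowest to highest. Their median lengths were 340, 400.5, 456 and 673 bp in that order. The top class held 35 of the 43 peaks of 1 kb or more. Peaks are not independent replicates, so no p is given.

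Against the 17 other autosomes left when chromosome 15 is set aside, chromosome 10 had 1.38 times the pooled density, 5.74 against 4.15 peaks per Mb. Of the 17, only chromosomes 8, with 6.49, and 4, with 6.0, were above it, and they ranged down to 2.75 on chromosome 7. Chromosome 15, which was set aside, had 10.4 peaks per Mb, more than any of them. The rest of chromosome 10, without the stretch, was still at 1.28 times the pooled density. In the 17, 9033 peaks lay on 2176 Mb.

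The order changed when large groups were left out. Without groups of 10 or more starts that follow each other within 50 kb, chromosome 10 had 5.36 peaks per Mb, and each of the 17 others had fewer. Next were chromosomes 17 with 4.68 and 8 with 4.56, while chromosome 4 fell to 3.74. Chromosome 15, outside this ranking, had 9.04. The pooled density of the 17 was then 3.66, and chromosome 10 was at 1.47 times that value. Chromosome 10 had 6.72% of its peaks in such groups, against 37.6% on chromosome 4, with a median of 6.93% over the 17.

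The median window of 1 Mb also put chromosome 10 first among the autosomes compared, with 5 peaks against 2 to 4 on the other 17. On chromosome 15, set aside, the median window held 8. The fullest window of chromosome 10 held 33 peaks, and 7 of the 17 others had a fuller one. Windows of 10 or more peaks were 19.7% of those on chromosome 10 and 6.62% of the 2189 on the other autosomes. Windows with no peak were 5.51% on chromosome 10, and 15 of the 17 others had a larger share, with a pooled value of 10.4%. No test of these differences was made, because the chromosome was picked by its density in this list.

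**Figure D5:**
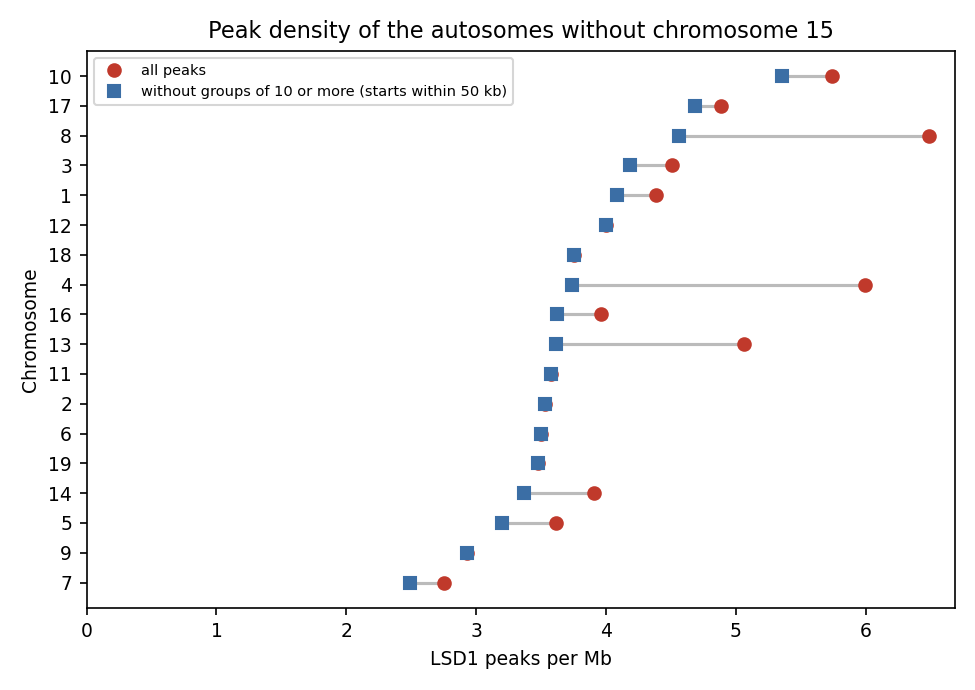
LSD1 peaks per Mb (x axis) on chromosome 10 and the 17 other autosomes without chromosome 15 (y axis, ordered by the squares). Circles are all peaks and squares are peaks outside groups of 10 or more, and chromosome 10 has the square farthest to the right, at 5.36, while the circles of chromosomes 8 and 4 exceed its 5.74.

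The stretch was not the densest of its length. The densest 8 Mb of chromosome 10, at 13.4 peaks per Mb, was exceeded by those of 4 of the 17 other autosomes, among them chromosome 4 with 43.6 and chromosome 8 with 30.3. Without groups of 10 or more, only chromosome 8 of the 17 was above chromosome 10, with 13.8 against 10.3 per Mb. The median over the 17 was 6.13, and chromosome 15, set aside, had 17.6. Relative to the remainder of its own chromosome the densest 8 Mb of chromosome 10 was then 2.04 times as dense. On that scale 6 other chromosomes had a higher ratio, up to 3.48 on chromosome 8, and the lowest was 1.6.

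In spacing, length and score chromosome 10 lay inside the range of the other autosomes, towards the closer, longer and higher-scoring end. The share with a neighbour within 10 kb was 32.4% on chromosome 10 and 31.7% over the 17 pooled, where single chromosomes went from 17.5% on chromosome 9 to 50% on chromosome 4 with a median of 27.9%, and 14 were below chromosome 10. Without groups of 10 or more the share was 27.6%, against a median of 23% over the 17, of which 15 were lower. The median distance was 71.6 kb against 89.4 kb pooled, and 14 of the 17 had a longer one. The median length was 456 bp, with an interval of 437 to 476 bp, against 439 bp pooled, and the 17 ranged from 417 to 486 bp, with 14 of them below chromosome 10. The median score was 80.14, with an interval of 77.02 to 85.25, against 78.17 pooled and a range of 74.3 to 84.38, with 13 of the 17 below. Peaks of 1 kb or longer were 5.9% on chromosome 10 and 5.41% pooled.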

How the data were processed

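Reads were aligned with BWA to mm9, per the submitters' processing notes, and MACS in Galaxy compared the ChIP with the input library, per the file headers. Of versions, settings and duplicate filters the sources used here say nothing. The authors deposited 1 list with a position and a score for each peak. The score's scale is not stated, so it served only to describe, rank or filter peaks. Positions are printed 1-based. Windows and the stretch use starts as deposited, counted from 0.

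Chromosome 10 and the stretch were chosen with earlier results of these data known, as were all lists and thresholds, so no test was made. Density of a chromosome is peaks per Mb from its first to its last start, and that of an interval is per Mb of its fixed length. The rest of chromosome 10 is its span less the stretch. Intervals are exact binomial (95%), from order statistics for medians. All treat peaks as independent, although peaks lie in groups. The peaks named are the 10 highest in score, the 5 longest, the highest of each megabase of the stretch, the 5 highest with no start within 50 kb, those at the borders, and the largest groups. Leaving out groups of 10 or more starts was added after the data were seen. The functions were tested on simulated data, where 8 of 8 checks gave the planted values. The work used pandas 2.3.3, scipy 1.17.1 and numpy 2.4.6 under Python 3.11.15, with figures by matplotlib 3.10.9. Genes and sequences of mm9 were not used here.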

Additional observations from a re-analysis of the deposited data

How the results depend on the processing

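No paired analysis was possible because there was only 1 ChIP and 1 input library, so no replicate could be left out either. Depth is unknown, so peaks under the lowest score cannot be counted. The cause of the changes below was not tested, but some follow by construction. A filter leaves fewer peaks, and a filter on score raises the median score. A shorter distance can only lower the share with a neighbour, and a longer one can only raise it. For peaks that reach the list's median score and its upper quartile, chromosome 10 had 3.02 and 1.61 peaks per Mb, the stretch 7.38 and 3.5, 24.2% and 20% of peaks had a neighbour within 10 kb, and the medians were 567.5 and 673 bp in length and 123.4 and 168.9 in score. The density relative to the other autosomes was 1.56 for the upper quartile. With peaks within 10 kb counted as 1, the densities were 4.55 on chromosome 10 and 7.88 in the stretch, which was 1.82 times the rest. With gaps of up to 1 kb closed they were 5.28 and 10.1, and 23.1% had a neighbour within 10 kb. That share was 8.23% at 1 kb and 60.8% at 50 kb. Without groups of 10 or more starts, added after the data were seen, the stretch had 9.25 per Mb, 1.82 times the rest, and 27.6% had a neighbour within 10 kb. The stretch was denser than the rest, and chromosome 10 denser than the others pooled, under each alternative setting for these ratios, with values from 1.82 to 2.7 and from 1.3 to 1.56. Below these ranges were 1.77 for the stretch without its 24 grouped peaks and 1.28 for chromosome 10 without the stretch. The 1.77 is against a rest that kept its own groups.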

Other observations

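Long intervals without a peak lay near both ends of chromosome 10 and in its middle. The widest ran from a peak end at 124368357 to the next start at 127216585, over 2.85 Mb. It was followed by 1.85 Mb from 8226542 to 10079462 and by 1.77 Mb from 78608450 to 80376715. In all, 18 of the 728 distances between consecutive starts were over 1 Mb. The sequence in these intervals was not analysed here.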
